A study of Saccharomyces cerevisiae with 36 samples.

Results

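The phosphate (PHO) regulon is the set of budding yeast genes that help a cell find, take up and store inorganic phosphate. The genes described here are 10 of them: the acid phosphatases PHO5, PHO11 and PHO12, the transporters PHO84 and PHO89, the regulators PHO81 and SPL2, the polyphosphate genes VTC1 and VTC3, and PHM6. The members were found on the array by gene symbol, with the brightest probe set kept where a gene had several. Of these 10 genes, 9 have a probe set, out of 5449 genes named on the array. PHO12 has no probe set under its own symbol. The PHO11 probe set is of a type that matches more than a single near-identical gene, so its signal can include PHO12, and values given for PHO11 are uncertain to that extent. Each of the 9 measured genes has 1 probe set.

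As background, the regulon is switched on when phosphate runs short. The Pho80-Pho85 cyclin and kinase phosphorylates the transcription factor Pho4 when phosphate is ample and keeps it out of the nucleus. When phosphate is scarce, Pho81 inhibits the kinase, and Pho4 together with Pho2 activates the genes for secreted acid phosphatases, high-affinity transporters and the vacuolar enzyme that builds polyphosphate. Inositol pyrophosphates, made by Kcs1 and Vip1, act upstream. The pathway is one of the best studied cases of gene control through chromatin, above all at the PHO5 promoter.

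RNA was hybridised to Affymetrix Yeast Genome 2.0 arrays in 3 strains at 4 times, with 3 arrays in each of 12 groups and 36 arrays in all. WT, eco1-W216G and scc2-D730V are haploid W303a (MATa) strains that share a deletion of BAR1, the protease that degrades alpha factor, and the marker alleles ade2-1, can1-100, his3-1, leu2,3-112, trp1-1 and ura3-1. The eco1-W216G strain carries, with a HYG marker at the native locus, a mutation in the acetyltransferase of cohesin, the ring complex that holds sister chromatids together, and scc2-D730V carries in the same way a mutation in the protein that loads cohesin onto DNA. The 0 min arrays come from growth in rich medium (YPD+CSM), and the arrays at 15, 35 and 55 min from cells moved into minimal medium without amino acids. Each strain is 1 isolate, so a mutation and any other difference between isolates cannot be told apart. The loss of amino acids and the other differences between the media cannot be told apart either. The study describes 3 independent cultures for each strain. In bulk RNA, fewer cells with a transcript and less of it per cell cannot be told apart.

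Values are log2 of the deposited intensity, so a difference of 1 is a doubling, and levels of different probe sets are set side by side only to place a gene within the range of the array. The median log2 intensity of an array lay between 10.97 and 11.16. A single limma model was fitted to all 5716 probe sets that are not array controls, and a gene is called higher or lower at a Benjamini-Hochberg adjusted p under 0.05 over all of them. Deleted BAR1 gave a log2 intensity of 4.44 to 4.89 on every array, a measure of the level of an absent RNA. On the same array PHM6 lay at least 1.55 above BAR1 and the other 8 genes at least 5.19. Of the mutated genes, ECO1 was at 5.26, 5.05 and 5.15 in eco1-W216G at 0 min and at 8.21, 8.87 and 8.23 in WT. The ECO1 signal of the mutant at 0 min was thus close to the BAR1 level. Its mean at 55 min was 6.69, against 7.72 in WT, and why it is low was not tested. At 0 min SCC2 was at 11.19, 11.75 and 11.55 in scc2-D730V and at 11.78, 11.92 and 11.66 in WT. The MATa genes MFA1, MFA2 and STE2 were at 13.16 or higher on every array, and the alpha genes MF(ALPHA)1, MF(ALPHA)2 and STE3 at 8.46 or lower.

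In WT most genes of the regulon fell within 15 min of the transfer and came back in part by 55 min. In eco1-W216G some of them started lower, and fewer fell. From 0 to 15 min in WT, 8 of 9 genes fell and PHO89 was not called, with a median change of -2.40. Over all probe sets the median change was 0.02, and 36.5% were called lower. From 15 to 55 min 8 of 9 rose in WT, by a median of 1.17, where 20.3% of all probe sets rose; PHO5 was not called. In eco1-W216G 4 of 9 fell from 0 to 15 min (VTC3, PHO81, PHO5 and PHM6), with a median of -0.19 and 27.0% of all probe sets called lower. From 15 to 55 min only PHO5 and VTC3 of the 9 rose in eco1-W216G, where 1.54% of all probe sets did. Each of these 2 calls was lost when the eco1-W216G arrays of any of the 3 replicate numbers were left out, which leaves 0 of 9. Below, leaving out a culture means leaving out all arrays of 1 strain with 1 replicate number. The labels do not say whether such arrays share a culture.

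**Figure D1:**
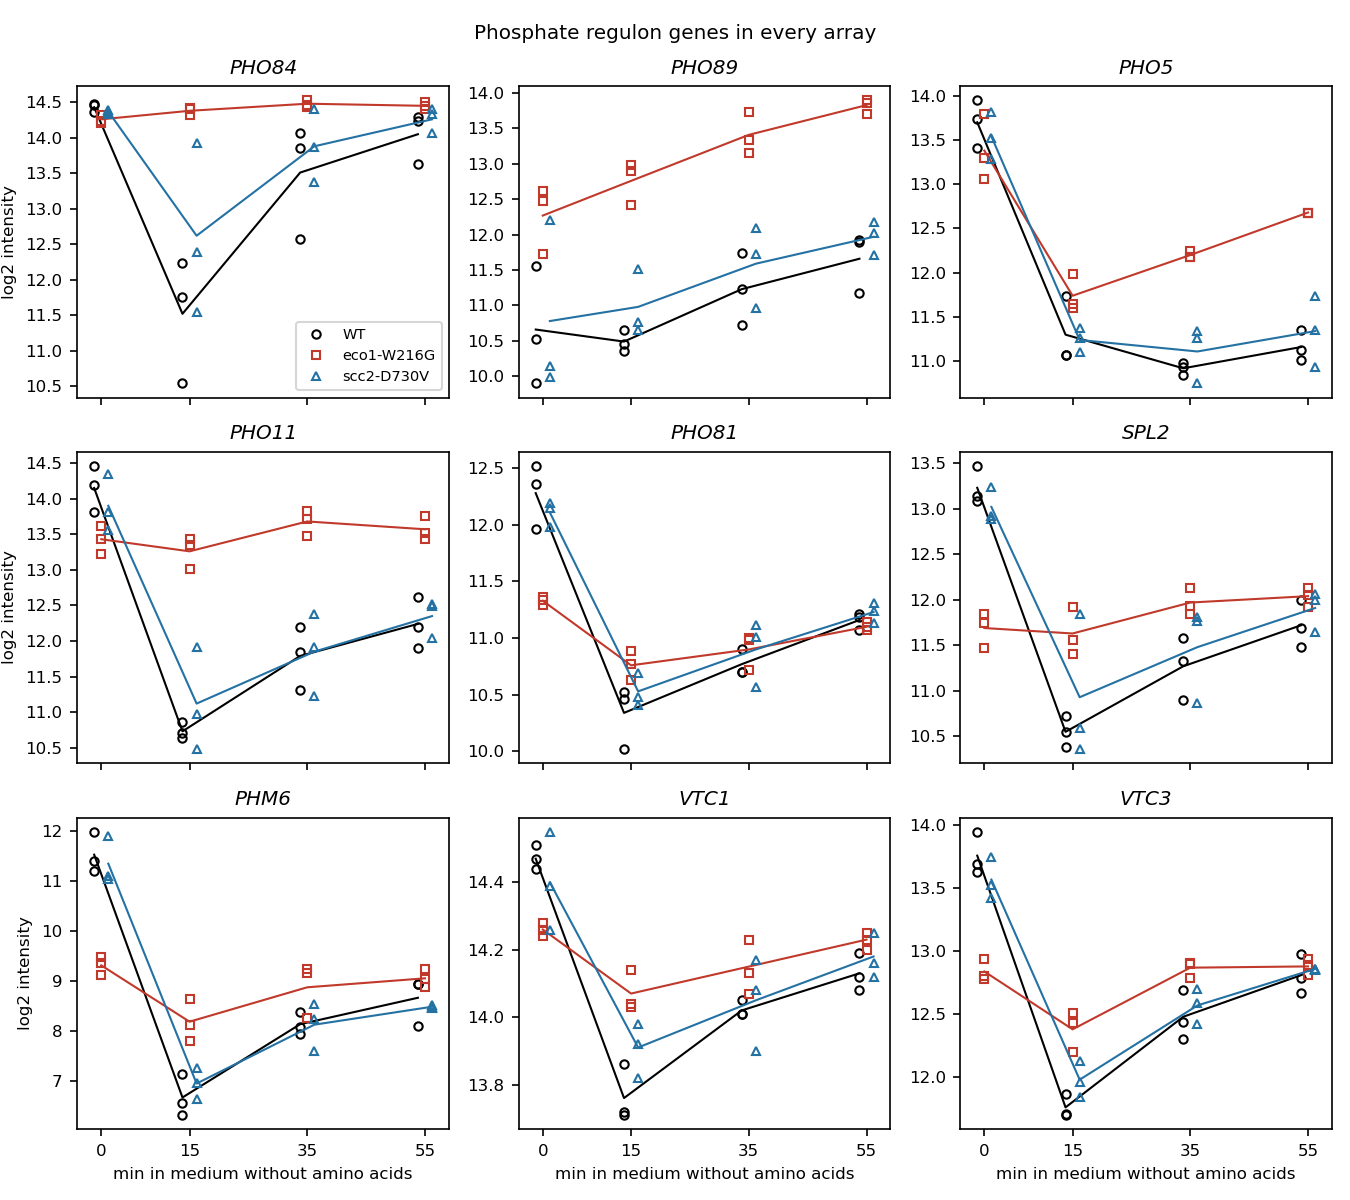
Log2 intensity of each gene on every array against minutes after the transfer to medium without amino acids, with 1 panel for each gene (the vertical scale differs between panels). Points are single arrays, slightly displaced in time by strain, and lines join the means of 3 arrays. At 15 min the WT and scc2-D730V points lie low in every panel but that of PHO89, and those of eco1-W216G lie closer to their 0 min level in the same panels.

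Set against WT at the same time, the sign of the difference in eco1-W216G turned over. At 0 min, 4 of 9 genes were lower (PHM6, SPL2, PHO81 and VTC3) and PHO89 was higher, with a median log2 ratio of -0.72 where the median of all probe sets was -0.08. Of all probe sets, 11.5% were called lower and 13.7% higher in that comparison. At 15 min, 8 of 9 were higher and 0 lower, with a median of 1.08, against 18.9% of all probe sets higher and 22.7% lower. At 35 min, 7 of 9 were higher and 0 lower, with a median of 0.74, against 20.1% and 26.8% of all probe sets. At 55 min PHO89, PHO5 and PHO11 were higher and no gene was lower, with a median of 0.39, against 17.0% and 21.2%. The median of all probe sets was -0.08 at 15 min and -0.09 at 35 and 55 min. With the replicate number as a block, 6 genes were lower at 0 min (PHO11 and VTC1 besides) and all 9 were higher at 15 min (PHO5 besides). The shares of all probe sets called with the block were not computed, and those above are from the fit without it. The count at 35 min rested on single cultures: it was 3 without WT replicate 2, and 4 without eco1-W216G replicate 1 or without eco1-W216G replicate 3.

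PHO84 encodes the main high-affinity transporter, a proton symporter. In WT its log2 intensity was 14.48, 14.36 and 14.46 before the transfer, 11.76, 10.54 and 12.24 after 15 min, 14.07, 12.58 and 13.86 after 35 min, and 14.24, 13.63 and 14.29 after 55 min. WT replicate 2 was the lowest of its group at all 4 times. In eco1-W216G the values were 14.21, 14.24 and 14.32 at 0 min and 14.40, 14.32 and 14.42 at 15 min, and all 6 arrays at 35 and 55 min lay between 14.41 and 14.53. The mutant thus kept its level while WT fell 7.55-fold (log2 change -2.92, SE 0.40, adjusted p = 2.59e-07). At 15 min the groups did not overlap and PHO84 was 7.28-fold higher in eco1-W216G than in WT (log2 ratio 2.86, SE 0.40, adjusted p = 3.72e-06). Without WT replicate 2 the ratio was 2.38. At 35 min the ratio was 0.97 (adjusted p = 0.0497), a call that was lost without WT replicate 2 (0.51, adjusted p = 0.286) and without any single eco1-W216G culture. At 0 and 55 min PHO84 was not called. In WT at 0 min it was outshone by only 123 of 5716 probe sets (2.15%), and whether the probe set could register a still higher level was not tested.

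PHO89 encodes the other high-affinity transporter, a sodium symporter. It was the exception in direction. In WT its values were 11.56, 10.53 and 9.90 before the transfer, 10.46, 10.36 and 10.65 after 15 min, and 11.92, 11.17 and 11.89 after 55 min. In eco1-W216G they were 12.47, 11.73 and 12.62 before the transfer, 12.98, 12.42 and 12.90 after 15 min, and 13.71, 13.86 and 13.90 after 55 min. No eco1-W216G array overlapped with WT at the same time. The log2 ratio was 1.61 (SE 0.43, adjusted p = 0.00615) at 0 min, 2.27 (adjusted p = 0.000125) at 15 min, 2.18 (adjusted p = 0.000148) at 35 min and 2.17 (adjusted p = 0.000267) at 55 min, the last being 4.49-fold. The call at 0 min, where the WT arrays spread widely, was lost without WT replicate 3 (1.23, adjusted p = 0.0831) and without eco1-W216G replicate 3 (1.44, adjusted p = 0.0612). In scc2-D730V at 0 min replicate 1 was at 12.21 and the other two at 10.15 and 9.99. WT rose by 1.17 from 15 to 55 min (adjusted p = 0.0332), and leaving out any WT culture took this call away.

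PHO5 encodes the main secreted acid phosphatase, which frees phosphate from organic esters outside the cell. Its values in WT were 13.95, 13.74 and 13.41 before the transfer, 11.74, 11.07 and 11.07 after 15 min, 10.98, 10.84 and 10.94 after 35 min, and 11.01, 11.35 and 11.13 after 55 min. In eco1-W216G they were 13.30, 13.79 and 13.06 before the transfer, 11.98, 11.60 and 11.65 after 15 min, 12.24, 12.18 and 12.18 after 35 min, and 12.67, 12.68 and 12.68 after 55 min. PHO5 thus fell in both strains, and at 15 min it was the gene not called against WT in the full fit. The fall to 15 min was 5.29-fold in WT (adjusted p = 2.23e-11) and 3.12-fold in eco1-W216G (adjusted p = 2.39e-07). The mutant over WT ratio was -0.31 (adjusted p = 0.277) at 0 min and 0.45 (adjusted p = 0.0795) at 15 min, with groups that overlapped at both times. The ratio rose to 1.28 (SE 0.20, adjusted p = 1.25e-05) at 35 min and 1.51 (SE 0.20, adjusted p = 2.33e-06) at 55 min, with groups apart. From 15 to 55 min WT changed by -0.13 (adjusted p = 0.648) and eco1-W216G by 0.93 (adjusted p = 0.0115). The mutant's call was lost without any single eco1-W216G culture, at adjusted p = 0.0717 to 0.246. The 15 min ratio was called without WT replicate 1 (0.67, adjusted p = 0.0171), with the replicate number as a block (0.45, adjusted p = 0.0336), under array weighting (0.54, adjusted p = 0.0129) and when quantile-normalized again (0.50, adjusted p = 0.046).

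PHO11, a second secreted acid phosphatase whose probe set can also read PHO12, also held its level in eco1-W216G. In WT it was at 14.46, 14.19 and 13.81 before the transfer, 10.86, 10.63 and 10.71 after 15 min, and 12.62, 11.90 and 12.20 after 55 min. In eco1-W216G it was at 13.44, 13.62 and 13.22 before the transfer, 13.43, 13.01 and 13.35 after 15 min, and 13.44, 13.52 and 13.75 after 55 min. WT fell 10.7-fold by 15 min (adjusted p = 2.56e-11), whereas the mutant changed by -0.17 (adjusted p = 0.659), with arrays of both times overlapping. PHO11 was 5.76-fold higher in eco1-W216G at 15 min (log2 ratio 2.53, SE 0.29, adjusted p = 2.81e-07), 3.71-fold at 35 min (adjusted p = 8.63e-06) and 2.51-fold at 55 min (adjusted p = 0.000808). At 0 min the ratio was -0.72 (adjusted p = 0.0672), not called although the groups did not overlap. It was called lower with the replicate number as a block (-0.72, adjusted p = 0.0252), with the culture as a random block (adjusted p = 0.0399), under array weighting (-0.73, adjusted p = 0.00481) and with only the arrays compared (adjusted p = 0.0264).

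PHO81, the inhibitor of Pho80-Pho85, had values of 12.36, 11.96 and 12.52 in rich medium in WT, which turned into 10.02, 10.52 and 10.46 by 15 min. Those of eco1-W216G were 11.34, 11.29 and 11.36 before the transfer and 10.77, 10.63 and 10.89 after 15 min. The mutant started 1.93-fold lower (log2 ratio -0.95, SE 0.14, adjusted p = 9.54e-06) and was 1.35-fold higher at 15 min (0.43, adjusted p = 0.0164). The groups did not overlap at either time. The call at 15 min was lost without WT replicate 1 (0.27, adjusted p = 0.17), without eco1-W216G replicate 1 (0.43, adjusted p = 0.0607) and without eco1-W216G replicate 3 (0.36, adjusted p = 0.101). It was also lost with only the arrays of the groups compared (0.43, adjusted p = 0.0557). By 55 min WT was at 11.21, 11.07 and 11.19 and eco1-W216G at 11.07, 11.10 and 11.14, which overlap, with a ratio of -0.05 (adjusted p = 0.797).

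SPL2, which encodes a small protein that lowers low-affinity phosphate uptake, followed the same course with a wider swing. WT went from 13.47, 13.09 and 13.14 at 0 min to 10.72, 10.38 and 10.55 at 15 min and rose to a mean of 11.72 (SD 0.26, n = 3) at 55 min. In eco1-W216G all 12 arrays lay between 11.40 and 12.13. SPL2 was 2.92-fold lower in the mutant at 0 min (log2 ratio -1.55, SE 0.27, adjusted p = 6.81e-05) and 2.11-fold higher at 15 min (1.08, SE 0.27, adjusted p = 0.00185). The call at 35 min (0.70, adjusted p = 0.0323) was lost in 5 of the 6 settings that leave out a WT or eco1-W216G culture, WT replicate 1 being the exception. At 55 min the groups overlapped and SPL2 was not called.

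PHM6, a phosphate-regulated gene of unknown function, had the widest range. WT was at 11.99, 11.21 and 11.40 before the transfer, 6.31, 6.55 and 7.13 after 15 min, and 8.94, 8.09 and 8.94 after 55 min, a first fall of 29.2-fold (log2 change -4.87, SE 0.30, adjusted p = 2.84e-14). In eco1-W216G it was at 9.48, 9.11 and 9.35 before the transfer, 8.63, 7.79 and 8.11 after 15 min, and 9.24, 9.04 and 8.88 after 55 min, and its fall was 2.2-fold (adjusted p = 0.00219). The mutant began below every WT array and at 15 min lay above all of them. The ratios were -2.22 (SE 0.30, adjusted p = 1.59e-06) at 0 min and 1.51 (SE 0.30, adjusted p = 0.000194) at 15 min. At 35 min the groups overlapped and the ratio of 0.74 (adjusted p = 0.0403) was lost without WT replicate 2 (0.65, adjusted p = 0.115), without WT replicate 3 (0.71, adjusted p = 0.094), without eco1-W216G replicate 1 (0.57, adjusted p = 0.174), without eco1-W216G replicate 3 (0.61, adjusted p = 0.182) and when the arrays were quantile-normalized again (0.50, adjusted p = 0.176).

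VTC1 and VTC3 encode subunits of the vacuolar transporter chaperone, the complex that makes polyphosphate, the phosphate store of the vacuole. VTC3 was at 13.95, 13.63 and 13.69 in WT before the transfer, 11.71, 11.70 and 11.87 after 15 min, and 12.98, 12.67 and 12.79 after 55 min. In eco1-W216G it was at 12.94, 12.78 and 12.80 before the transfer, 12.43, 12.20 and 12.51 after 15 min, and 12.94, 12.81 and 12.89 after 55 min. It was 1.89-fold lower in the mutant at 0 min (log2 ratio -0.92, SE 0.12, adjusted p = 8.64e-07) and 1.54-fold higher at 15 min (0.62, SE 0.12, adjusted p = 0.000133), each time with groups apart. At 35 min it was still higher (0.39, adjusted p = 0.00767), a call that was lost without WT replicate 2 (0.30, adjusted p = 0.0666). At 55 min the groups overlapped. VTC1 kept within a narrow band of 13.71 to 14.55 over all 36 arrays, near the top of the range, with 106 probe sets (1.85%) brighter in WT at 0 min. It fell 1.63-fold in WT by 15 min (adjusted p = 1.56e-08) and was 1.24-fold higher in eco1-W216G at that time (0.31, SE 0.08, adjusted p = 0.00432). This call against WT was lost with only the arrays of the groups compared (adjusted p = 0.0501). The VTC1 ratio at 0 min was -0.21 (adjusted p = 0.0649). It was called lower with the replicate number as a block (adjusted p = 0.0438), with a variance trend in limma (adjusted p = 0.0312) and under array weighting (adjusted p = 0.0181).

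**Figure D2:**
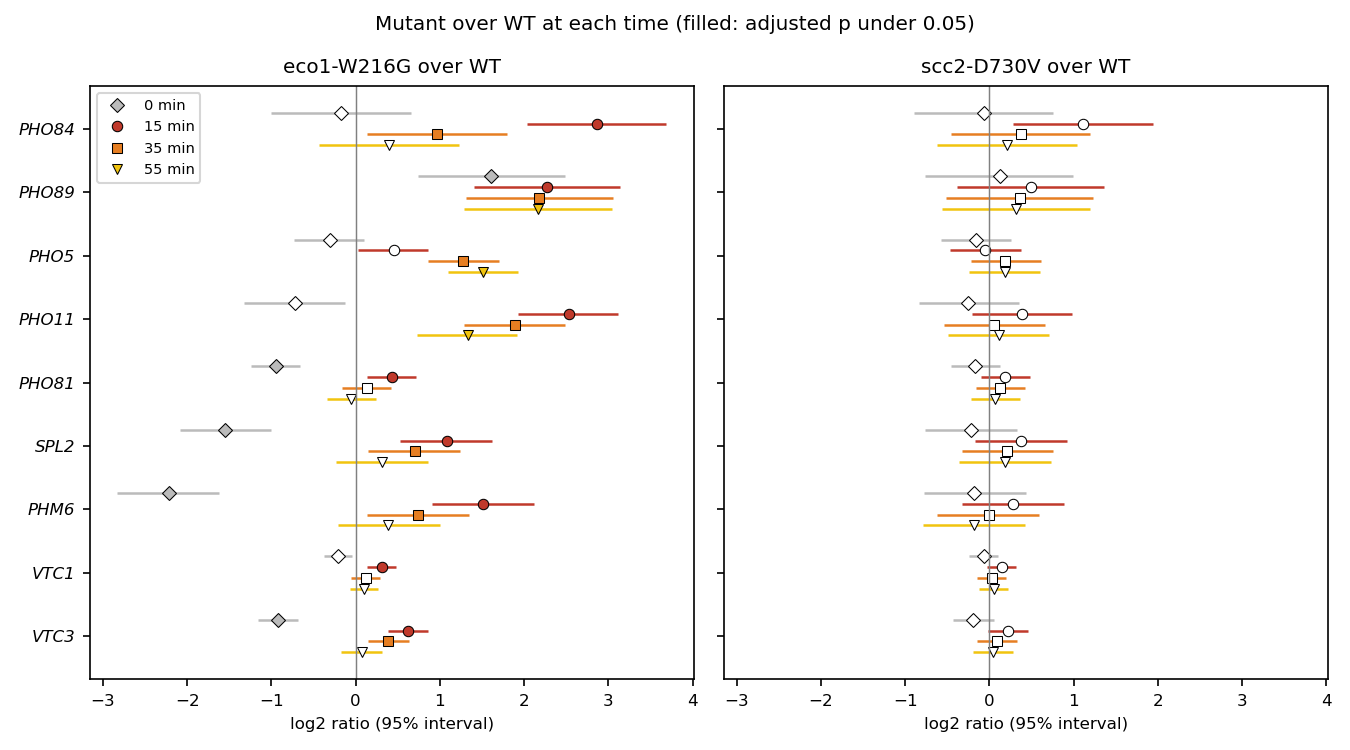
Log2 ratio of each mutant over WT (horizontal axis) for each gene and time, with 95% intervals from the limma model. Filled symbols are ratios at an adjusted p under 0.05. In eco1-W216G the 0 min ratios of PHM6 (-2.22), SPL2 (-1.55), PHO81 (-0.95) and VTC3 (-0.92) lie to the left and those at 15 min to the right, while all ratios of scc2-D730V are open.

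The difference between the strains' changes was also tested directly, as the change from 0 min in eco1-W216G minus that in WT. At 15 min it was above 0 and called for 8 of 9 genes and called below 0 for none, with a median of 1.54 where all probe sets had -0.04 and 17.6% were called above and 18.3% below. PHM6 had the largest value (3.73, SE 0.42, adjusted p = 2.88e-07), followed by PHO11 (3.25, SE 0.41, adjusted p = 1.43e-06), PHO84 (3.04, SE 0.57, adjusted p = 0.000165) and SPL2 (2.62, SE 0.38, adjusted p = 7.28e-06). Each of these 4 values lay within 2 SE of the next, and their order was not tested. VTC3 (1.54), PHO81 (1.38), PHO5 (0.76) and VTC1 (0.52) followed. PHO89 was not called (0.66, adjusted p = 0.415): its ratio was positive already at 0 min. The PHO5 call (adjusted p = 0.0397) was lost without WT replicate 2 (0.63, adjusted p = 0.169), WT replicate 3 (0.79, adjusted p = 0.0739), eco1-W216G replicate 1 (0.60, adjusted p = 0.203) or eco1-W216G replicate 3 (0.64, adjusted p = 0.173).

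At 35 min the same difference was called above 0 for 7 of 9 genes and below 0 for none, with a median of 1.31, where 19.9% of all probe sets were called above and 21.9% below. At 55 min it was 7 of 9 and none, with a median of 0.98, where the shares were 15.7% and 17.2%. PHO84 was called at neither time (1.14, adjusted p = 0.11 at 35 min, and 0.57, adjusted p = 0.466 at 55 min). WT was still 1.9-fold below its 0 min level of PHO84 at 35 min (adjusted p = 0.0414). The 35 min difference was called with only the arrays of the groups compared (adjusted p = 0.034), under array weighting (0.91, adjusted p = 0.0477) and with the culture as a random block (adjusted p = 0.0439). PHO5 went the other way, from 0.76 at 15 min to 1.59 at 35 min and 1.83 at 55 min (adjusted p = 2.58e-05). VTC1 was called with the smallest values, 0.33 (adjusted p = 0.0246) and 0.31 (adjusted p = 0.0457). The first was lost when any WT culture, eco1-W216G replicate 1 or eco1-W216G replicate 3 was left out, and the second when any WT or eco1-W216G culture was left out. The 15, 35 and 55 min values share the arrays at 0 min.

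**Figure D3:**
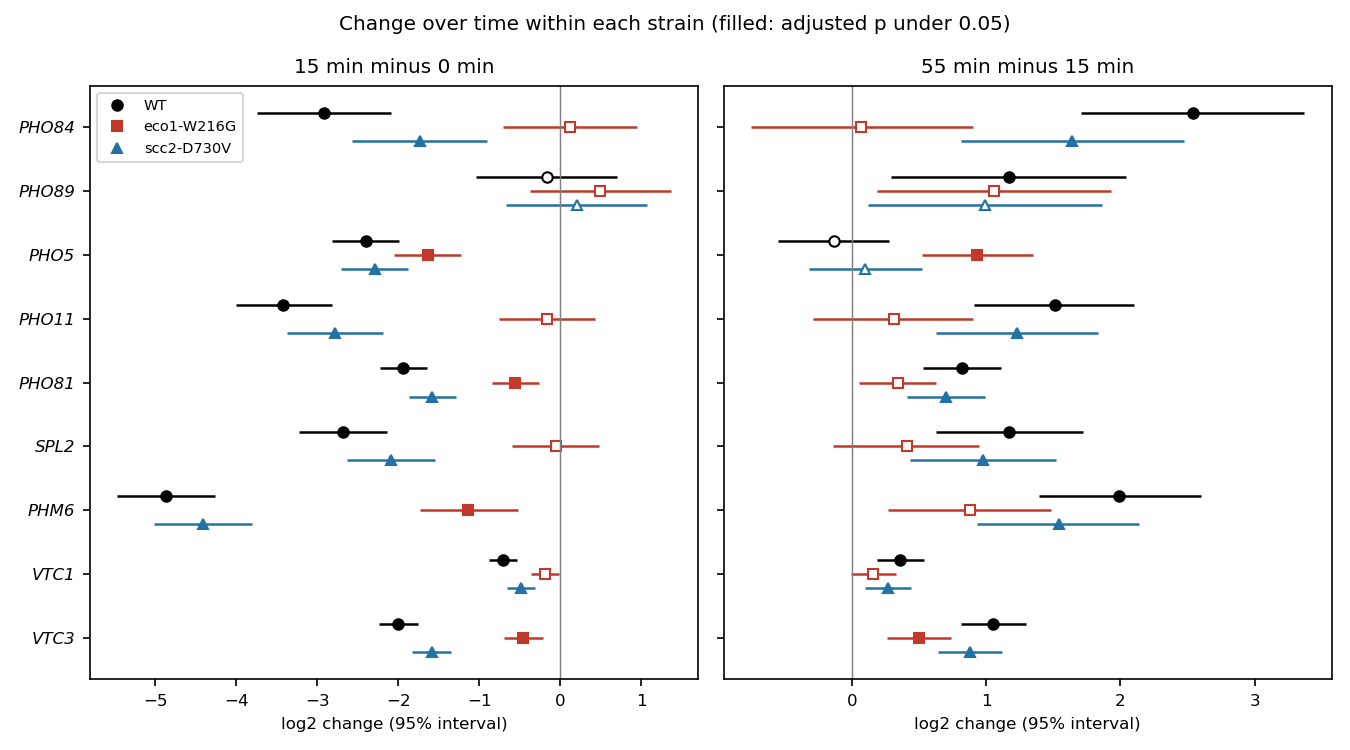
Change in log2 intensity of each gene from 0 to 15 min (left) and from 15 to 55 min (right) within each strain, with 95% intervals from the limma model. Filled symbols are changes at an adjusted p under 0.05. On the left WT and scc2-D730V reach -4.87 and -4.41 for PHM6, and eco1-W216G lies nearer to 0 for all genes but PHO89.

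In scc2-D730V, as in WT, most genes fell by 15 min and rose again by 55 min. From 0 to 15 min 8 of 9 genes fell, with a median of -1.74, where 34.8% of all probe sets fell. From 15 to 55 min 7 of 9 rose, with a median of 0.98, where 19.1% of all probe sets rose. Against WT none of the 9 genes was called by limma at any time, where 2 of 5716 probe sets (0.0350%) were called at each of the 4 times. At an unadjusted p under 0.05 the counts were 0 at 0 min, 1 at 15 min, 0 at 35 min and 0 at 55 min. The change from 0 min minus that of WT was called for 0 of 9 genes at each of 15, 35 and 55 min. The share of all probe sets called was 0% each time. At an unadjusted p under 0.05 the counts were 2, 0 and 0 genes. No share of all probe sets was computed at this unadjusted level, so neither set of unadjusted counts has a background beside it. At 15 min all 9 differences were above 0, from 0.11 to 1.17 with a median of 0.41, where all probe sets had 0.01. A smaller fall than in WT is thus not excluded by the lack of calls. Same-numbered scc2-D730V and WT arrays deviated together, with a median correlation of 0.587 over 12 pairs. With the replicate number as a block, again no gene was called against WT or for the difference in change. The share of all probe sets called in that blocked fit was not computed.

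The gene at an unadjusted p under 0.05 at 15 min was PHO84. Its values in scc2-D730V were 14.34, 14.37 and 14.39 before the transfer, 13.93, 12.39 and 11.55 after 15 min, 14.40, 13.87 and 13.37 after 35 min, and 14.40, 14.33 and 14.07 after 55 min. Its log2 ratio over WT at 15 min was 1.11, with a 95% interval from 0.28 to 1.94 (unadjusted p = 0.0105). In scc2-D730V at 15 min, replicate 1 was the highest of its group for 8 of 9 genes. Replicate 1 was likewise the highest for 8 of 9 in WT at 0 min and at 35 min. At 15 min it was so for 3 of 9 in WT and 6 of 9 in eco1-W216G. The scc2-D730V replicate 1 at 15 min was at 11.92 for PHO11 and 11.84 for SPL2. Replicates 2 and 3 were at 10.97 and 10.48 for PHO11 and at 10.59 and 10.36 for SPL2. Without scc2-D730V replicate 1 the PHO84 ratio was 0.45, that of PHO11 -0.01 and that of SPL2 -0.08, and 0 genes were called. The intervals leave room for differences from WT: at 15 min they reached 1.36 for PHO89, 0.98 for PHO11, 0.92 for SPL2 and 0.88 for PHM6. For VTC1, the most tightly measured gene, the interval ran from -0.03 to 0.32.

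The mutants differed from each other in the pattern in which eco1-W216G differed from WT, with different control arrays but the same eco1-W216G arrays. At 0 min eco1-W216G had less PHM6, SPL2, PHO81 and VTC3 RNA than scc2-D730V and more PHO89 RNA, 5 of 9 genes where 22.1% of all probe sets were called in either direction. At 15 min 6 of 9 genes were higher and 0 lower (37.6% of all probe sets in either direction). The counts were 5 higher and 0 lower at 35 min (39.8%), then 3 higher and 0 lower at 55 min (30.9%). PHO11 led at 15 min (2.14, SE 0.29, adjusted p = 4.93e-06), followed by PHO89 (1.78) and PHO84 (1.75). Without scc2-D730V replicate 1 the count at 15 min was also 6, and the ratios were 2.54 for PHO11, 2.05 for PHO89 and 2.41 for PHO84. The count at 15 min was 4 when replicate 3 of either mutant was left out. That at 35 min was 3 when eco1-W216G replicate 1, eco1-W216G replicate 3 or scc2-D730V replicate 3 was left out. The PHO89 call at 0 min (1.49, adjusted p = 0.0117) was lost when eco1-W216G replicate 1 or 3, or scc2-D730V replicate 2 or 3, was left out.

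Over the 12 group means most of the 9 profiles ran alike. The Pearson correlation of a gene with the mean of the other standardised profiles was 0.98 for VTC1, 0.95 for PHO11, 0.94 for SPL2, 0.94 for VTC3, 0.93 for PHM6, 0.86 for PHO81, 0.82 for PHO84 and 0.79 for PHO5. It was 0.14 for PHO89, the exception. The means share arrays and the transfer of medium, so these values are a description. Genes not among the 9 ran as close, though these were picked as the highest of all named genes. Over the same 12 means the 5 highest correlations with PHO84 were those of PRY2 (0.986), TOS6 (0.972), GIN4 (0.971), RGA1 (0.966) and PCL1 (0.960). For PHM6 they were IRC5 (0.983), SDD3 (0.981), MET18 (0.978), NUP192 (0.977) and ELG1 (0.977). For VTC3 they were POL12 (0.994), MRS6 (0.988), NMD2 (0.982), VTC4 (0.978) and NUP100 (0.977), of which VTC4 is a partner in the same complex. For the mean of the standardised profiles they were LAS1 (0.993), SXM1 (0.991), POC4 (0.989), NCS2 (0.987) and KTI11 (0.986).

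Other genes of phosphate handling, 33 in number and chosen by role, gave 31 with a probe set. Against WT in eco1-W216G, 5 of 31 (16.1%) were higher and 6 (19.4%) lower at 0 min, where 13.7% and 11.5% of all probe sets were. At 15 min 10 (32.3%) were higher and 5 (16.1%) lower, against 18.9% and 22.7% of all probe sets. The counts were 9 (29.0%) and 4 (12.9%) at 35 min, against 20.1% and 26.8%, then 3 (9.68%) and 3 (9.68%) at 55 min, against 17.0% and 21.2%. Their median log2 ratio was -0.13 at 0 min and 0.06 at 15 min, near that of all probe sets. In scc2-D730V 0 of 31 were called against WT at any time, with 0, 2, 0 and 0 at an unadjusted p under 0.05. For that unadjusted level no share of all probe sets was computed.

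Among the transporters, GIT1, the permease for glycerophosphoinositol and the gene with the highest ratio of the 31 at 15 min, was at 10.11, 10.28 and 10.16 in WT at 15 min and at 12.43, 12.09 and 12.40 in eco1-W216G, with groups apart and a ratio of 2.12 (SE 0.25, adjusted p = 2.88e-07). PHO90, a low-affinity transporter, was at 10.67, 10.97 and 11.23 in WT and at a mean of 12.23 (SD 0.25, n = 3) in the mutant, again with groups apart (1.27, SE 0.25, adjusted p = 0.000204). PHO88, an endoplasmic reticulum protein, was also higher (0.59, adjusted p = 1.85e-05). None of these 3 was called at 0 min.

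PHO3, a constitutive acid phosphatase that lies next to PHO5 on the chromosome, was higher in eco1-W216G at every time, and the genes are similar in sequence, so whether their probe sets share signal was not tested. It was at 8.06, 8.40 and 8.28 in WT at 15 min and at 10.36, 9.58 and 10.01 in the mutant (1.73, SE 0.28, adjusted p = 2.13e-05). At 0 min its ratio was 0.75 (adjusted p = 0.0495) where that of PHO5 was -0.31, and the change from 0 to 15 min was a fall in both strains.

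VTC2 and VTC4, the remaining measured subunits of the polyphosphate complex, were lower in eco1-W216G at 0 min, like VTC3 (-0.90, adjusted p = 4.83e-06, and -0.40, adjusted p = 0.0172). At 15 min VTC4 was higher (0.47, adjusted p = 0.00273) and VTC2 was not called. KCS1, the inositol pyrophosphate kinase, was lower at 0 min (-0.60, adjusted p = 0.0024), and VIP1, the other such kinase, was higher at 15 min (0.65, adjusted p = 0.000435). Of the regulators, PHO4 was lower at 0 min (-0.79, adjusted p = 0.0303), and PHO2 (-0.94, adjusted p = 0.000676) and PHO85 (-0.61, adjusted p = 5.46e-05) were lower at 15 min. The PHO4 mean at 15 min was 10.74 in eco1-W216G and 10.41 in WT. For PHO80 the means at 15 min were 11.60 in eco1-W216G and 12.05 in WT. Those of PHO23 were 10.04 and 10.39, and those of CBF1 10.77 and 11.05. PHM7, which carries a phosphate-metabolism name but an opposite course, was at 7.88, 8.25 and 7.61 in WT and 10.36, 9.74 and 11.10 in eco1-W216G at 0 min (2.48, SE 0.35, adjusted p = 4.73e-06). At 15 min it was at 13.87, 13.99 and 14.07 in WT and 12.07, 13.19 and 13.04 in the mutant (-1.21, adjusted p = 0.00694). CTF19, a kinetochore gene that lies next to VTC3, was lower in eco1-W216G at 0 min (-0.98, adjusted p = 0.039), as VTC3 was, and was not called at 15, 35 or 55 min. PHO92 was higher at both 0 and 15 min (1.16, adjusted p = 0.00339, and 1.31, adjusted p = 0.000581). Higher at 0 min were also HOR2, a glycerol phosphatase gene (1.07, adjusted p = 0.00345), and the phosphatase gene PHM8 (0.72, adjusted p = 0.0224), whose groups overlapped.

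**Figure D4:**
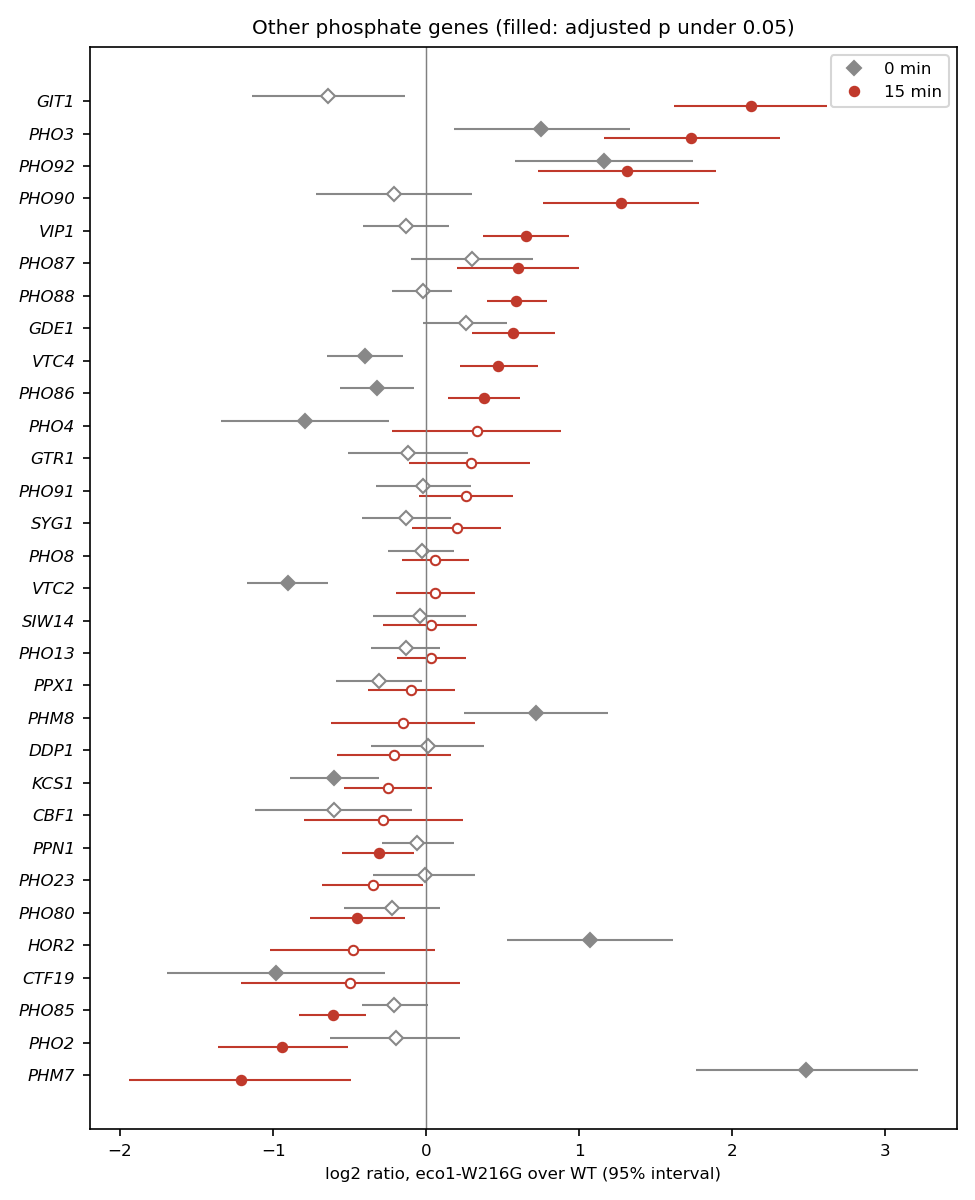
Log2 ratio of eco1-W216G over WT at 0 min (grey) and 15 min (red) for the 31 other phosphate genes with a probe set, ordered by the ratio at 15 min, with 95% intervals from the limma model. Filled symbols are ratios at an adjusted p under 0.05. GIT1 (2.12) is at the top at 15 min and PHM7 (-1.21) at the bottom.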

How the data were processed

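The authors summarised the 36 Affymetrix Yeast Genome 2.0 arrays by RMA (background correction, quantile normalization, 1 summary per probe set; version not given in the sources here) and deposited the intensity of each probe set on a linear scale. From the 5814 probe sets, 51 AFFX and 47 RPTR controls were left out, log2 was taken, and limma 3.58.1 in R 4.3.3 was fitted to 5716 probe sets with 12 coefficients, a coefficient for each strain and time (24 residual degrees of freedom, prior 3.75). Contrasts were adjusted by Benjamini-Hochberg over all probe sets within each. The 10 members and the other lists were chosen with earlier results of these data known. The rule named all members, up to 8 other phosphate genes called in eco1-W216G at 0 or 15 min (by smallest adjusted p), neighbours of a member, and the 5 most alike genes. PHO2, PHO4, PHO80, PHO23, CBF1, PHO92, KCS1, HOR2 and PHM8 fall outside it and were named after their values were seen. Gene names came from the platform annotation and RefSeq R64, through which HOR2 was matched. VTC5 and PPN2 had no probe set. The search of promoters for Pho4 motifs was not run, as no promoter sequence was used here. The procedure was tested on simulated data. As a check of pairing, deviations from the group means of same-numbered eco1-W216G and WT arrays correlated over 0.1 in all 3 pairs at 0, 15 and 55 min and in 1 of 3 at 35 min (-0.143 to 0.473 over the 12 pairs), and those of scc2-D730V and WT in 11 of 12 (0.00621 to 0.841). The labels tie no number to a shared day or batch, so the main fit has no block. For eco1-W216G and WT, blocked values stand beside the calls they change. Same-numbered arrays of 1 strain may share a culture but were taken as independent, and p-values measure the spread between these arrays. In WT their deviations correlated over 0.1 in 14 of 18 pairs (0.0614 to 0.711). The counts were 12 of 18 in eco1-W216G (-0.289 to 0.649) and 14 of 18 in scc2-D730V (-0.139 to 0.879). Alternatives changed the arrays in the fit, normalization, filter, variance model, weights, adjustment, threshold, replicates, blocks and probe sets.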

Additional observations from a re-analysis of the deposited data

Results flagged for a closer look

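The change from 0 min in eco1-W216G differed from that in WT, by limma's test of the difference itself, for 22 of the 27 values of the 9 genes at 3 times, all of them above 0. At 15 min the log2 differences were 3.73 for PHM6, 3.25 for PHO11, 3.04 for PHO84, 2.62 for SPL2, 1.54 for VTC3, 1.38 for PHO81, 0.76 for PHO5 and 0.52 for VTC1. At 35 min they were 2.96 for PHM6, 2.62 for PHO11, 2.24 for SPL2, 1.59 for PHO5, 1.31 for VTC3, 1.08 for PHO81 and 0.33 for VTC1. At 55 min they were 2.62 for PHM6, 2.05 for PHO11, 1.86 for SPL2, 1.83 for PHO5, 0.98 for VTC3, 0.89 for PHO81 and 0.31 for VTC1. The values of PHO5 were larger at 55 than at 15 min and those of the other genes named at all 3 times were smaller, an order that was not tested. Part of each value comes from the 0 min arrays, which the 3 times share, and at which PHM6, SPL2, PHO81 and VTC3 were lower in the mutant. The values at 15 min are large both where the mutant started lower (PHM6, SPL2) and where it was not called at 0 min (PHO84, and PHO11, which was called lower there under 4 alternatives).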

How the results depend on the processing

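Of 796 recomputed counts of genes called, 771 stayed within 1.5 times the main count, 23 fell below and 2 rose above. Many main counts were 0, and those that stayed 0 are among the 771. Single genes were scored only in comparisons of eco1-W216G and WT, and those with scc2-D730V are not in this tally. Of 1600 such recomputed values, 1499 kept direction and side of the threshold, 69 lost the call, 25 gained it and 7 changed sign. With only the arrays of the groups compared, the count of genes above scc2-D730V in eco1-W216G was 0 at 0 min (1 in the full fit) and 3 at 35 min (5), and 3 rose in scc2-D730V from 15 to 55 min (7). With array weights, 4 rose in eco1-W216G from 15 to 55 min (2) and 1 in scc2-D730V from 0 to 15 min (0). Adjusting over the 8 mutant/WT contrasts together, or at an adjusted p under 0.01, left 4 genes higher in eco1-W216G than WT at 35 min (7). The stricter p also left 0 and 3 genes higher than in scc2-D730V at 0 and 35 min, and 0 rising in eco1-W216G from 15 to 55 min. Leaving out 1 culture moved the count higher than WT in eco1-W216G to 0 to 1 at 0 min, 7 to 8 at 15 min, 3 to 7 at 35 min and 3 at 55 min. It moved the count higher than in scc2-D730V to 0 to 1, 4 to 6, 3 to 6 and 3, and the count rising in eco1-W216G from 15 to 55 min to 0, where fewer arrays enter each fit.

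The 7 changes of sign were all in values not called. PHO81 in eco1-W216G over WT at 55 min became 0.004 after quantile normalization and 0.01 with arrays centred. Leaving out a culture gave PHO89 in WT from 0 to 15 min -0.63 to 0.29, PHO5 in WT from 15 to 55 min -0.34 to 0.17, and VTC3 in eco1-W216G over WT at 55 min -0.004 to 0.15. In eco1-W216G from 0 to 15 min it gave -0.31 to 0.06 for PHO11 and -0.13 to 0.09 for SPL2.

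With the replicate block, 6 genes were lower at 0 min (4) and 9 higher at 15 min (8) in eco1-W216G than WT. The block also gained 2 calls within eco1-W216G, VTC1 from 0 to 15 min (-0.19, adjusted p = 0.0431) and PHM6 from 15 to 55 min (0.88, adjusted p = 0.0413). It changed no other call of a single gene in the comparisons of eco1-W216G and WT. Single genes in comparisons with scc2-D730V were not scored for this, though none was called against WT with the block. With the culture as a random block (correlation 0.244), 5 were lower at 0 min, and 8 higher at 15 min. Shares of all probe sets called were not computed under either block. Every gene has 1 probe set, so averaging probe sets changed nothing here. Centring the arrays moved the median ratio of all probe sets by at most 0.081. The number of arrays limits the precision, and PHO84 and VTC1 lie near the top of the intensity range.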
